A study of Mus musculus with 6 samples.

Results

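The 33 genes described here encode the machinery with which a cell folds, inspects and exports the proteins it secretes. They were chosen by name, with no measured value in the rule, as sensors of the unfolded protein response, chaperones, disulfide enzymes, factors of ER-associated degradation (ERAD) and components of entry into and exit from the endoplasmic reticulum (ER). All 33 were among the 18057 genes of the deposited table, and all 33 were among the 14149 genes that passed the filter on low counts. By role they comprised 4 sensor genes, 11 chaperones and their partners, 5 disulfide enzymes, 6 ERAD genes and 7 genes of entry and exit.

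RNA came from group 2 innate lymphoid cells (ILC2s), tissue lymphocytes that release type 2 cytokines, isolated from mouse lung. Both groups came from mice given 3 intranasal injections of 1 µg recombinant mouse IL-33, the alarmin that activates ILC2s, and the cells were then kept in culture for 24 h in IL-7 and IL-2, both at 10 ng/mL. The control group has the genotype label Il7rcre, although its titles read WT, and the Piezo1_KO group has the label Il7rcrePiezo1flx, a floxed allele of the mechanosensitive channel gene Piezo1 deleted by the same Cre. Each group had 3 libraries made from 10 ng of RNA. The Il7r gene drives Cre in lymphoid cells in general, so the deletion is not limited to ILC2s. No label says that the 3 libraries of a group came from separate animals, so each p-value here reflects the spread among 3 libraries a group, and that spread may be technical.

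Secreted and membrane proteins enter the ER through the Sec61 channel while they are being made, lose their signal peptide, fold with the help of chaperones, gain disulfide bonds and leave in COPII vesicles. When unfolded proteins accumulate, the sensors ATF6, IRE1 (encoded by Ern1) and PERK (encoded by Eif2ak3) start the unfolded protein response: cleaved ATF6 and the spliced form of XBP1 induce chaperone, disulfide and ERAD genes, and PERK slows translation and raises ATF4. The cytokines that ILC2s release once activated pass through this pathway.

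The libraries held between 13059046 and 33459904 estimated counts, and the shallowest was control 3. Levels are given as CPM, counts normalised to library size after TMM scaling. The ILC2 label was checked on 12 marker genes: their summed level was between 11743 and 12313 CPM in the controls and between 13189 and 14304 CPM in Piezo1_KO, with Il5 at 3986 CPM or more in every library. Most of that sum was Il5 and Il2ra, both higher in Piezo1_KO without overlap. Thy1 (7.45 against 15.5 CPM), Id2 (1116 against 1430 CPM) and Klrg1 (294 against 366 CPM) were also higher without overlap. They fell short of the threshold (adjusted p = 0.0603, 0.214 and 0.213, edgeR). The lineage regulators Gata3 (986 against 737 CPM) and Rora (192 against 161 CPM) were lower without overlap, short of the threshold (adjusted p = 0.0612 and 0.320, edgeR), and the IL-33 receptor gene Il1rl1 (904 against 788 CPM) overlapped. Of the 12, Il7r, the locus of the Cre driver, fell (adjusted p = 0.00722, edgeR) and 0 rose. Piezo1 itself was at 247, 278 and 160.03 CPM in controls 1, 2 and 3 and at 150.04, 109 and 122 CPM in Piezo1_KO 1, 2 and 3, which gave a log2 fold change of −0.85 ± 0.21 (SE) and an adjusted p of 0.112 in edgeR, short of the threshold. Reads of exons that the deletion leaves in place enter this count too, so it does not measure the intact transcript.

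Several of these genes are textbook targets of ATF6 and XBP1, which act through the ER stress element (ERSE), the letters CCAAT and CCACG separated by 9 bases. The window from 250 bases before to 50 bases after the gene start was available from RefSeq (GRCm38.p6) for 27 of the 33 genes, and both strands were searched. The element was present in 8 of the 27 windows (29.6%), those of Hspa5, Hsp90b1, Calr, Canx, Dnajc3, Creld2, Pdia6 and Syvn1, and in 39 of all 32851 promoter windows (0.119%). Hsp90b1 held it at 2 places. The related ERSE-II (ATTGG and CCACG separated by 1 base) was in Dnajb11 and Herpud1, against 0.0365% of all windows, and the letters TGACGTG, the core of the UPR element, were in Hspa5 and Sec24d, against 2.01% of all windows. The following stretches are shown because the first 3 belong to chaperone genes that were among the highest in Piezo1_KO relative to control, the next 2 carry the same element in genes that differed little between the groups, and the last belongs to the 1 gene that passed the test and holds none of the 3 motifs. Each reads 5′ to 3′ on the strand of its gene, and capitals mark the matched elements, on either strand.
Hspa5: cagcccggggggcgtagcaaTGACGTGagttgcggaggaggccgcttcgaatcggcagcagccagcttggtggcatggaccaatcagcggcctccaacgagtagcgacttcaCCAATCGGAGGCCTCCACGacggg
Hsp90b1: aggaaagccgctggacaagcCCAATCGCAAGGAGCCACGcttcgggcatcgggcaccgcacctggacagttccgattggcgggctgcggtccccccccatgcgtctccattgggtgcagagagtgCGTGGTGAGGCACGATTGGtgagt
Canx: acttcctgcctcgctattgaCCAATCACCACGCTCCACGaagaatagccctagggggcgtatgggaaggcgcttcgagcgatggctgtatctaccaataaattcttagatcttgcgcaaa
Creld2: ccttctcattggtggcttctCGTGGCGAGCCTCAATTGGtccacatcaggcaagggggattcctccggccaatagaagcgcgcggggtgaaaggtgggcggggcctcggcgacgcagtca
Syvn1: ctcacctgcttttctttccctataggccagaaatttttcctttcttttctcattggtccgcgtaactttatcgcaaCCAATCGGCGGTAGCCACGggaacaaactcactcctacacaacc
Rrbp1: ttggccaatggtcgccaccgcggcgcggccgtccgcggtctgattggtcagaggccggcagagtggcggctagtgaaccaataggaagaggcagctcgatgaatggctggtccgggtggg
These stretches lie at chr2:34771913-34772048 on the plus strand, chr10:86705528-86705676 on the minus strand, chr11:50325719-50325838 on the minus strand, chr15:88819500-88819619 on the plus strand, chr19:6046456-6046575 on the plus strand and chr2:144011264-144011383 on the minus strand. In Hspa5 the capitals nearest the 5′ end are the UPR element core and the later ones the ERSE. The second element of Hsp90b1 and that of Creld2 read on the opposite strand. A match of letters is a description of the window and not a measured binding site.

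**Figure D1:**
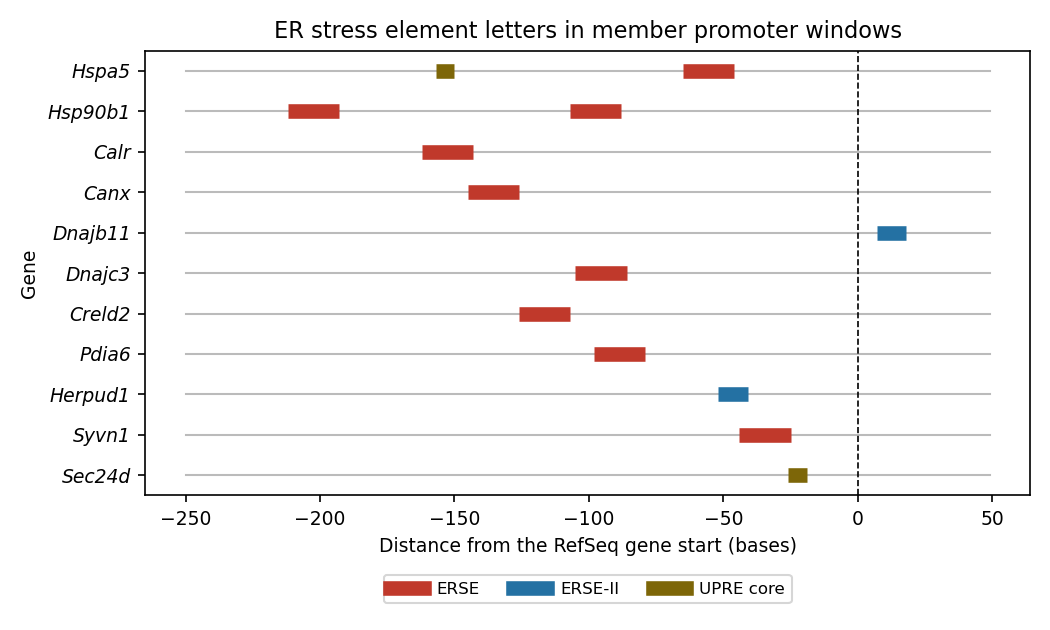
Positions of the ERSE, ERSE-II and UPR element core letters in the promoter windows of the 11 genes that hold at least 1 of them, with distance from the RefSeq gene start in bases on the x axis and 1 gene per line. The elements lie before the start in every gene except Dnajb11, where the ERSE-II spans bases 7 to 17 after it.

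Relative to control, 1 of the 33 genes rose in Piezo1_KO and 0 fell (edgeR quasi-likelihood test, Benjamini-Hochberg adjustment over all genes tested, threshold 0.05). The call was Rrbp1, the ribosome-binding protein of the rough ER. Of all genes tested, 1.51% passed, 1.00% higher and 0.509% lower, so a single call among 33 is close to that background. At an unadjusted p under 0.05, 6 of the 33 were higher (Rrbp1, Ero1l, Hsp90b1, Hspa5, Ssr1 and Canx) and 0 were lower, where 6.30% of all genes were higher and 6.91% lower. The groups did not overlap in 12 of the 33 genes, which were all higher in Piezo1_KO, against 10.1% of all genes higher and 10.5% lower. These 12 are the 6 named and Calr, Dnajc3, Pdia4, P4hb, Derl2 and Atf6. The log2 fold change was positive in 25 of 33 genes (75.8%) and in 53.0% of all genes tested, with a median of 0.13 against 0.018 for all genes. It ranged from −0.12 to 0.57, and the median width to either side of the 95% interval was 0.229, which is wider than most of the differences. Over all genes tested that median width was 0.390. The 33 genes were thus measured more precisely than all genes as a whole, which the shares above do not allow for. DESeq2 and limma-voom each called 3 of the 33, Rrbp1, Ero1l and Hsp90b1, all higher. The 1.51% is that of edgeR, and the shares of all genes called by DESeq2 and limma-voom are not given here. Their calls are therefore not set against a background.

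**Figure D2:**
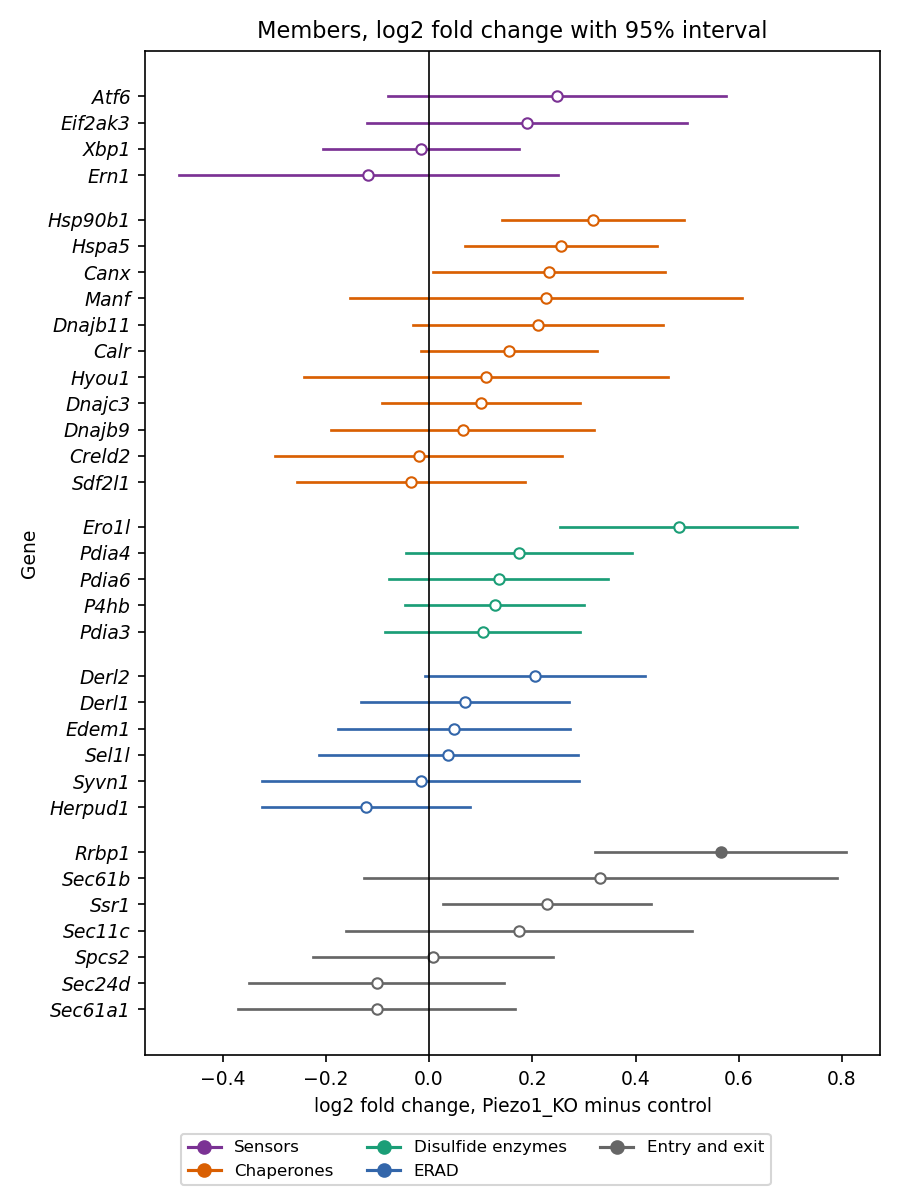
Log2 fold change of each of the 33 genes (x axis, Piezo1_KO minus control) with its 95% interval, grouped and coloured by role. The 1 filled point, Rrbp1, passed the edgeR threshold. Of the points 25 of 33 lie above 0, where 53.0% of all genes tested were positive, and the disulfide enzymes are the role in which all 5 do.

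Summed over the 33 genes, the share of library counts was 1.93%, 1.91% and 1.89% in controls 1, 2 and 3 and 2.13%, 2.19% and 2.17% in Piezo1_KO 1, 2 and 3. The means were 1.91% ± 0.022 and 2.16% ± 0.026 (SD, n = 3), and each Piezo1_KO library lay above every control library. Ero1l alone took 0.339% ± 0.038 and 0.463% ± 0.0083 (SD, n = 3). Without it the share was 1.58%, 1.54% and 1.59% in the controls and 1.68%, 1.72% and 1.70% in Piezo1_KO, and the groups still did not overlap. In bulk RNA, more cells of a type and more RNA per cell cannot be told apart. Summed markers of plasma and B cells, which are rich in these genes, were at 116 to 163 CPM in control and 210.4 to 219 CPM in Piezo1_KO over the 7 of 12 listed genes analysed here. Most of that sum was Prdm1, at means of 104 and 122 CPM with overlapping groups. Sdc1 was at 1.56 against 1.45 CPM with overlap, and Cd79b at 17.9 against 23.9 CPM without overlap (adjusted p = 0.175, edgeR). In that list Ighm rose, with mean levels of 18.6 ± 4.40 CPM (SD, n = 3) for the controls and 64.9 ± 10.7 CPM (SD, n = 3) for Piezo1_KO, at an adjusted p of 0.00473 in edgeR, while Mzb1, Igkc and Cd79a stayed under 1 CPM in every library, and Mzb1 had 0 counts in controls 1 and 3. Summed T cell markers were at 70.8 to 84.3 CPM in control and 83.8 to 97.6 CPM in Piezo1_KO, and the higher sum came with Lck, which rose from a mean of 13.2 to 37.6 CPM. Genes of the T cell receptor complex went both ways. Lower means in Piezo1_KO were those of Cd3e at 2.83 against 1.20 CPM without overlap (unadjusted p = 0.00574, adjusted p = 0.143, edgeR), Cd3g at 27.1 against 21.7 CPM and Trbc1 at 31.5 against 28.2 CPM, both with overlap. Higher means were those of Cd3d (0.180 against 0.528 CPM, without overlap) and Trac (0.603 against 0.626 CPM, with overlap), both under 1 CPM in every library. The list of epithelial and stromal markers summed to 51.7 to 60.7 and 83.4 to 85.4 CPM. Most of that was Pecam1, which is not specific to epithelial or stromal cells and rose from a mean of 43.1 to 67.5 CPM. The epithelial gene Epcam was at 12.9 against 16.4 CPM with overlap (adjusted p = 0.485, edgeR). In that list the epithelial cadherin gene Cdh1 was at 0.840 against 0.117 CPM without overlap (unadjusted p = 0.00622, adjusted p = 0.151, edgeR), and the stromal collagen gene Col1a1 was at 0 in controls 1 and 3. Macrophage and dendritic markers were at 4.78 to 11.6 and 4.61 to 7.19 CPM, and mast cell and granulocyte markers, of which Cma1 fell, at 12.1 to 16.7 and 4.31 to 5.67 CPM. The part of these cells in the result was not tested.

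Among the sensors, 0 of 4 genes passed the edgeR test or an unadjusted p under 0.05, and 0 passed in DESeq2 or limma-voom. Atf6, whose protein is cut in the Golgi to release a transcription factor, was at 92.7, 91.9 and 65.1 CPM in controls 1, 2 and 3 and at 99.2, 93.3 and 105 CPM in Piezo1_KO 1, 2 and 3. The groups did not overlap, and control 3 lay far below the other controls. The log2 fold change of 0.25 ± 0.14 (SE, adjusted p = 0.520, edgeR) was 0.10 without that library. Ern1, the kinase and RNase that splices Xbp1, ranged from 69.9 to 103 CPM in control and from 72.5 to 94.3 CPM in Piezo1_KO, and Eif2ak3, the kinase PERK, from 37.5 to 46.4 and from 41.3 to 53.3 CPM. Both overlapped between the groups and were lowest in control 3 among the controls. Xbp1, the target of that splicing, was at 551, 593 and 607 CPM in the controls and 569, 600.1 and 562 CPM in Piezo1_KO, with a log2 fold change of −0.02 ± 0.08 (SE) and a 95% interval from −0.21 to 0.17. Gene-level counts do not separate its spliced from its unspliced form, so the activity of IRE1 was not measured.

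Among the chaperones 9 of 11 genes were positive, where 53.0% of all genes tested were, and their median log2 fold change was 0.15. At an unadjusted p under 0.05, 3 of them were higher, against 6.30% of all genes, and 0 of 11 passed the adjusted edgeR threshold. Hsp90b1 (GRP94, the ER form of HSP90, chr10:86690209-86705509 in GRCm38) was at 1867, 1766 and 1867 CPM in controls 1, 2 and 3 and at 2161, 2323 and 2369 CPM in Piezo1_KO 1, 2 and 3. The lowest Piezo1_KO library lay above the highest control, and the means of 1833 ± 58.1 and 2284 ± 109 CPM (SD, n = 3) gave a log2 fold change of 0.32 ± 0.08 (SE, adjusted p = 0.111, edgeR). It passed in DESeq2 and limma-voom (adjusted p = 0.0130 and 0.0411). Of the exon bases of Hsp90b1, 10.3% are shared with 1810014B01Rik on the other strand, and whether the counting used strand is not given.

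Hspa5 encodes BiP, the ER HSP70 that binds nascent chains and holds the sensors inactive (chr2:34771970-34777547). It was at 1553, 1385 and 1512 CPM in the controls and 1741, 1842 and 1728 CPM in Piezo1_KO. All 3 Piezo1_KO libraries were above all 3 controls, at means of 1483 ± 87.8 and 1770.3 ± 62.4 CPM (SD, n = 3), a fold of 1.19 that did not pass (adjusted p = 0.215, edgeR). Canx, the membrane lectin calnexin that holds glycoproteins during folding (chr11:50293961-50325673), was at 909, 1013 and 835 CPM in the controls and 1032, 1056 and 1152 CPM in Piezo1_KO. Control 2 lay just below the lowest Piezo1_KO library. This log2 fold change was 0.23 ± 0.10 (SE), also short of the threshold (adjusted p = 0.364, edgeR). Calr, the soluble counterpart calreticulin, varied little within the groups, at 1007, 1021 and 1027 CPM against 1133, 1167 and 1100.5 CPM, with no overlap and a log2 fold change of 0.15 ± 0.07 (SE, adjusted p = 0.432, edgeR).

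**Figure D3:**
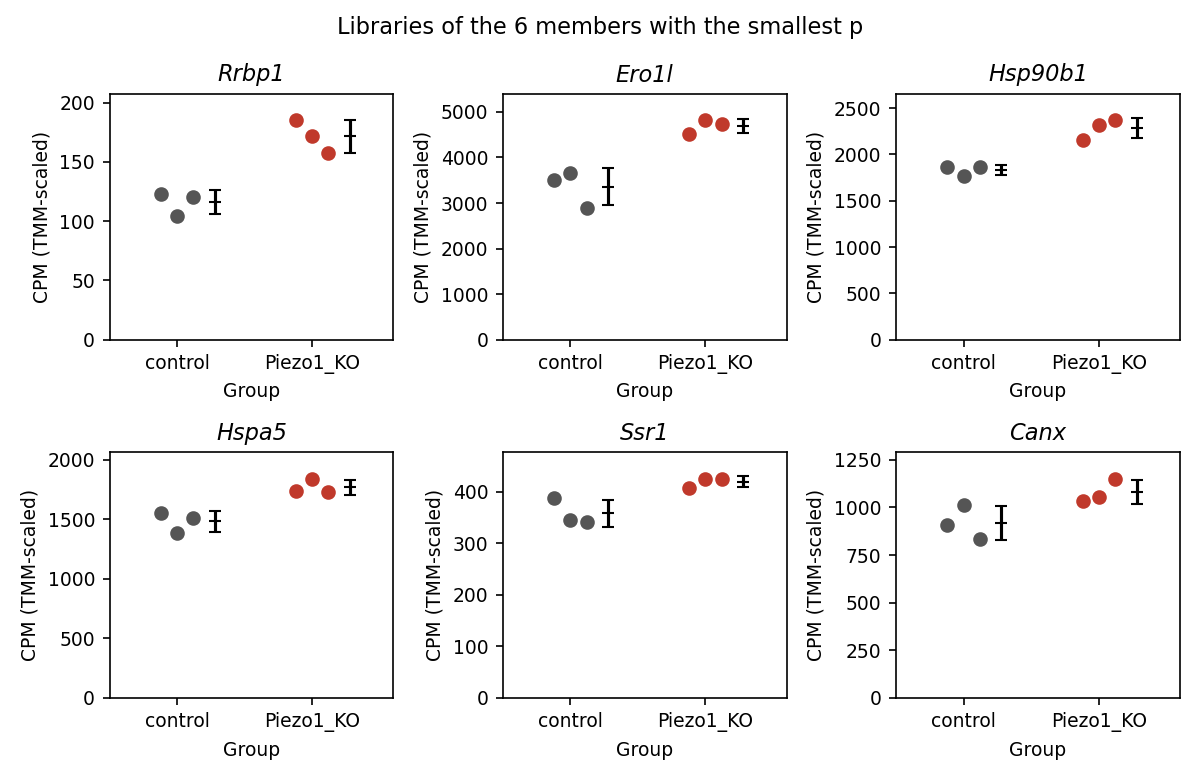
TMM-scaled CPM of the 6 genes with an unadjusted p under 0.05, 1 point per library, with the group mean and SD (n = 3) beside the points and each y axis starting at 0. In all 6 panels the lowest Piezo1_KO library is above the highest control, from 1.17-fold between the means in Canx and Ssr1 to 1.48-fold in Rrbp1. The 6 were picked by p in this same comparison, so that separation is not independent of the choice.

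BiP works with J-domain partners that stimulate its ATPase. Dnajc3 (P58IPK) was at 289, 280.1 and 261 CPM in controls 1, 2 and 3 and at 296, 303 and 292 CPM in Piezo1_KO 1, 2 and 3. The groups did not overlap, at a log2 fold change of 0.10 ± 0.08 (SE) that was 0.06 without control 3. Dnajb11 (ERdj3), at 288, 246 and 306 CPM against 306, 334 and 331 CPM, overlapped at control 3 and had a log2 fold change of 0.21 ± 0.11 (SE) that was 0.11 without control 2, its lowest library, and Dnajb9 (ERdj4) was the least abundant chaperone, at 26.3 to 29.3 and 26.9 to 31.9 CPM. Hyou1, an HSP70-like nucleotide exchange factor for BiP, ranged from 99.9 to 147 CPM in control and from 130.3 to 155 CPM in Piezo1_KO, and its log2 fold change of 0.11 turned to −0.04 without control 3. Manf, a small secreted protein that binds BiP and is released under ER stress, was at 362, 271 and 428 CPM in the controls and 371, 456 and 413 CPM in Piezo1_KO. Its control range covered most of the Piezo1_KO values, and its log2 fold change of 0.23 was 0.05 without control 2. Creld2, a secreted protein induced by ER stress, and Sdf2l1, a partner of ERdj3, had log2 fold changes of −0.02 ± 0.12 and −0.03 ± 0.10 (SE), with overlapping groups.

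Disulfide bonds are passed to clients by protein disulfide isomerases, which are reoxidised by ERO1. All 5 genes of this role had a positive log2 fold change (median 0.13), where 53.0% of all genes tested were positive. The groups did not overlap in 3 of them, all higher, against 10.1% of all genes higher. In edgeR 0 passed the adjusted threshold, with 1, Ero1l, at an unadjusted p under 0.05, where 6.30% of all genes were higher. Ero1l encodes ERO1 alpha (chr14:45283087-45318771) and was at 3504, 3662 and 2894 CPM in controls 1, 2 and 3 and at 4513, 4817 and 4738 CPM in Piezo1_KO 1, 2 and 3. The groups lay well apart, with means of 3353 ± 406 and 4689 ± 157 CPM (SD, n = 3) and a fold of 1.40. The log2 fold change of 0.48 ± 0.10 (SE) missed the threshold (adjusted p = 0.0664, edgeR), and 4 of 12 alternative fits passed it, among them DESeq2 (0.00121) and limma-voom (0.0138). It was 0.39 without control 3, the lowest library, and 0.53 without control 2, where it passed (adjusted p = 0.0323).

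The 4 isomerases had log2 fold changes between 0.10 and 0.17. P4hb (PDI itself) was at 885, 899.8 and 879 CPM in the controls and 961, 1005 and 944 CPM in Piezo1_KO. These groups did not overlap, and the log2 fold change was 0.13 ± 0.08 (SE, adjusted p = 0.533, edgeR). Pdia4 (ERp72), at 609, 641 and 525 CPM against 674, 659 and 669.6 CPM, also did not overlap, with a log2 fold change of 0.17 that was 0.09 without control 3. Pdia3 (ERp57, which acts on glycoproteins held by calnexin and calreticulin) and Pdia6 (P5) overlapped between the groups at log2 fold changes of 0.10 ± 0.08 and 0.13 ± 0.09 (SE). Both were lowest in control 2, at 1399.6 and 738.5 CPM, and without that library the values were 0.04 and 0.06.

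ERAD returns misfolded proteins to the cytosol for the proteasome. Of its 6 genes 4 were positive, where 53.0% of all genes tested were, and the median log2 fold change was 0.04. Of them 0 passed in edgeR, also at an unadjusted p under 0.05, and 0 passed in DESeq2 or limma-voom. Derl2, a derlin of the retrotranslocation channel, was at 89.1, 76.9 and 81.2 CPM in controls 1, 2 and 3 and at 91.3, 94.4 and 99.1 CPM in Piezo1_KO 1, 2 and 3. It was the only gene of this role without overlap, at a log2 fold change of 0.20 ± 0.09 (SE, adjusted p = 0.402, edgeR), while its paralog Derl1 overlapped (223 to 243 and 234 to 261 CPM). Herpud1, a scaffold of the ubiquitin ligase complex, had the lowest log2 fold change of the 33 genes, −0.12 ± 0.09 (SE, adjusted p = 0.614, edgeR). It was at 259, 294 and 280.3 CPM in control and 247, 263 and 257 CPM in Piezo1_KO, where only control 1 lay inside the Piezo1_KO range. The ubiquitin ligase Syvn1 (HRD1), its partner Sel1l and the mannosidase-like Edem1 had log2 fold changes of −0.02 ± 0.13, 0.04 ± 0.11 and 0.05 ± 0.10 (SE).

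Entry and exit held the 1 gene that passed. Rrbp1 (chr2:143947395-144011263) encodes p180, a rough ER membrane protein that binds ribosomes and microtubules. It was at 123, 104 and 121 CPM in controls 1, 2 and 3 and at 185, 172 and 158 CPM in Piezo1_KO 1, 2 and 3. The lowest Piezo1_KO library was well above the highest control, and the means were 116 ± 10.3 and 171 ± 13.7 CPM (SD, n = 3), a fold of 1.48. Rrbp1 rose by 0.57 ± 0.11 on the log2 scale (SE, adjusted p = 0.0446, edgeR). The direction held in all 12 alternative fits, at 0.47 to 0.62, but the call held in 3 of them: without a filter on low counts (adjusted p = 0.0410), in DESeq2 (0.000455) and in limma-voom (0.0247). Leaving out any 1 of the 6 libraries put the adjusted p between 0.0523 and 0.233.

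Ssr1, the alpha subunit of the translocon-associated complex (chr13:37966605-37994217), was at 387, 345 and 340.8 CPM in the controls and 407, 425 and 425 CPM in Piezo1_KO. The groups did not overlap, and the log2 fold change was 0.23 ± 0.09 (SE), short of the threshold at an adjusted p of 0.309 (edgeR). Of the Sec61 channel, Sec61a1, the pore subunit, was at 842, 1020.3 and 760.4 CPM in control and 854, 799 and 792 CPM in Piezo1_KO. Its log2 fold change of −0.10 ± 0.12 (SE) was 0.01 without control 2, its highest library. The small beta subunit Sec61b was at 179.6, 132 and 233 CPM in control and 193, 257 and 234 CPM in Piezo1_KO, and its log2 fold change of 0.33 ± 0.20 (SE) was 0.13 without the low control 2 and 0.55 without control 3. The channel subunits outside the 33 were both positive with overlapping groups, Sec61g at 0.68 ± 0.28 (SE, unadjusted p = 0.0410, adjusted p = 0.350, edgeR) and Sec61a2 at 0.09 ± 0.16 (SE). The signal peptidase subunits Sec11c and Spcs2 had log2 fold changes of 0.18 ± 0.15 and 0.01 ± 0.10 (SE), and the COPII coat subunit Sec24d one of −0.10 ± 0.11 (SE), all with overlapping groups. Sec11c moved to 0.05 without control 2 and 0.32 without control 3, and Sec24d to −0.04 and −0.18.

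**Figure D4:**
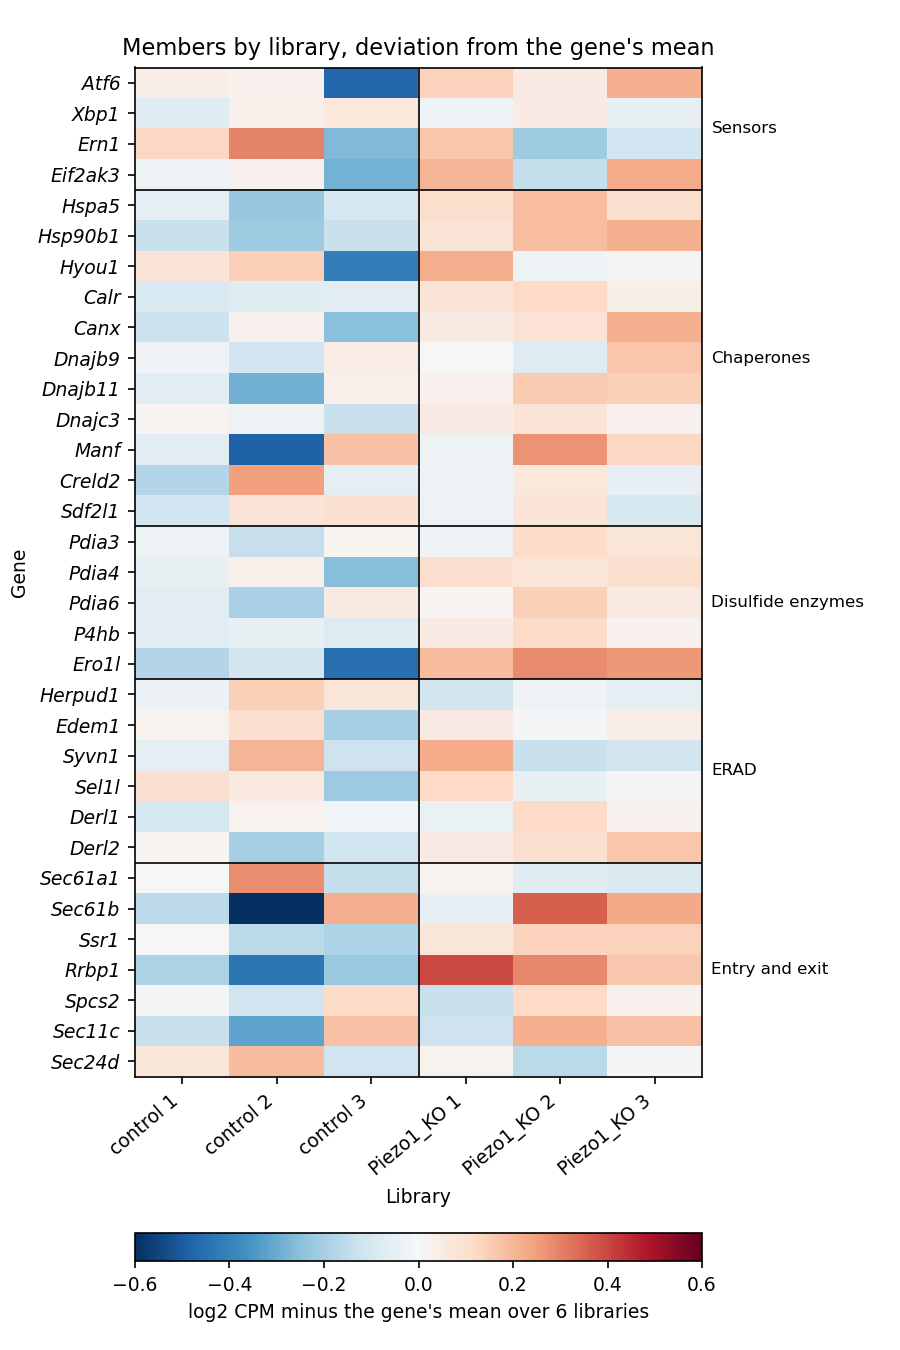
Log2 CPM of each of the 33 genes in each of the 6 libraries, as the deviation from the mean of that gene over the libraries (colour scale in log2 units), with genes ordered by role. Red predominates in the 3 Piezo1_KO columns, and single dark cells in control 2 (Sec61b, Manf) and control 3 (Atf6, Hyou1, Ero1l) show where 1 library sets the spread.

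The median deviation of the 33 genes from their own mean was −0.06, −0.03 and −0.12 on the log2 scale in controls 1, 2 and 3 and 0.05, 0.09 and 0.05 in Piezo1_KO 1, 2 and 3. Over all genes tested the median deviation was 0.012, 0.034 and 0.004 in controls 1, 2 and 3 and 0.016, 0.018 and 0.027 in Piezo1_KO 1, 2 and 3. The highest library was a Piezo1_KO library for 25 of the 33 genes, 14 of them in Piezo1_KO 2, and the lowest was a control for 29, most often control 3 (13) or control 2 (11). These counts were not taken over all genes, so they have no background beside them. Within each group, the libraries differed in a way that followed transcript length. Taking each library's deviation from the other libraries of its group, Spearman's rho with the length of the principal transcript over the 33 genes was 0.754, 0.369 and −0.696 in controls 1, 2 and 3 and 0.538, −0.676 and 0.011 in Piezo1_KO 1, 2 and 3. Over 13812 genes the same values were 0.137, 0.503, −0.587, 0.344, −0.421 and −0.006. The points of each value share 1 library, and the 3 values of a group share its libraries. In control 3 the long transcripts of Atf6 (7246 bases) and Ern1 (6946 bases) were low and the short ones of Sec61b (564 bases) and Sec11c (860 bases) high, and in control 2 those short transcripts were low. The other 2 genes under 1500 bases did not follow this in control 2: Creld2 (1366 bases) deviated by 0.36 there and by −0.11 in control 3, and Sdf2l1 (1108 bases) by 0.08 and 0.11. Spearman's rho of the log2 fold change itself with length was 0.146 over the 33 genes and −0.202 over all genes. The part of transcript length in the difference between the groups was not tested.

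Per transcript length, the order of the 33 genes was led by Ero1l at a mean of 910 CPM per kb over the 6 libraries, followed by Hsp90b1 (729), Pdia3 (556), Sec11c (553), Calr (493) and Hspa5 (443). The lowest were Atf6 (12.6), Ern1 (12.2), Dnajb9 (11.6) and Eif2ak3 (10.2), so all 3 stress sensors were among the last 4 genes. Xbp1, the target of IRE1, was at the tenth place. Rrbp1 was at 27.8 CPM per kb. In 26 of the 32 pairs of neighbours the ranges over the 6 libraries overlapped, so most of the order is not resolved. It was resolved below Hsp90b1, P4hb, Dnajb11, Derl1, Ssr1 and Syvn1.

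**Figure D5:**
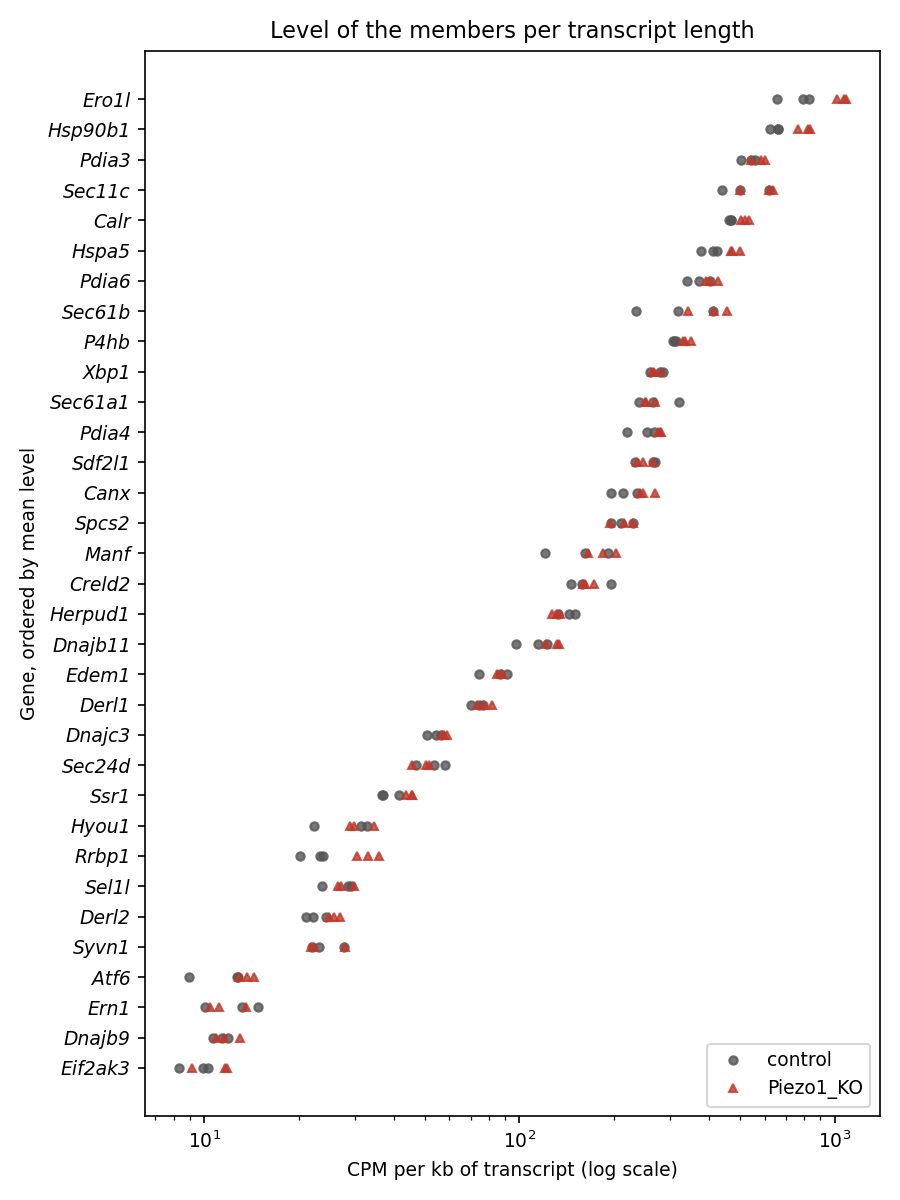
Level of each of the 33 genes in CPM per kb of principal transcript (log x axis), 1 point per library, with circles for control and triangles for Piezo1_KO and genes ordered by their mean. Mean levels span from 10.2 CPM per kb in Eif2ak3 to 910 CPM per kb in Ero1l, while the libraries of 1 gene lie close together on this scale.

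The promoter letters were set beside the differences between the groups. Of the 8 genes with the element 6 were positive, where 53.0% of all genes tested were, at a median log2 fold change of 0.14. Of the 19 other genes with a promoter window 14 were positive, at a median of 0.10, and the difference was not tested. The element was present in Hspa5, Hsp90b1 and Canx (0.26, 0.32 and 0.23) and equally in Creld2 and Syvn1 (−0.02 each), and absent from the windows of Rrbp1 and Ero1l, the 2 genes with the largest log2 fold changes. Dnajb11 and Herpud1, which share the ERSE-II, had log2 fold changes of 0.21 and −0.12.

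A further 119 genes of the same pathway, listed by function, gave 1 gene that rose and 0 that fell (edgeR), where 1.51% of all genes tested passed. At an unadjusted p under 0.05 there were 11 higher and 5 lower, against 6.30% and 6.91% of all genes. DESeq2 called 2, and its share of all genes is not given here. The log2 fold change was positive in 80 of 119 (67.2%, against 53.0% of all genes), with a median of 0.045. The groups did not overlap in 17 genes higher and 6 lower, against 10.1% and 10.5% of all genes. Kdelr3, a receptor that returns escaped ER chaperones from the Golgi, was at 7.999, 9.95 and 8.39 CPM in controls 1, 2 and 3 and at 15.4, 17.4 and 16.3 CPM in Piezo1_KO 1, 2 and 3. It rose 1.86-fold, with no overlap, by 0.89 ± 0.15 on the log2 scale (SE, adjusted p = 0.0277, edgeR). The call was lost without control 1 (adjusted p = 0.148) and without Piezo1_KO 1, 2 or 3 (0.115, 0.194 and 0.136). Fkbp11, an ER prolyl isomerase of secretory cells, was at 3.97, 4.72 and 5.17 CPM in control and 6.85, 11.4 and 9.91 CPM in Piezo1_KO. Its difference of 1.03 ± 0.24 on the log2 scale (SE) passed in DESeq2 (adjusted p = 0.00864) but not in edgeR (0.0966).

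In the PERK and ATF4 arm 5 of 8 listed genes were positive (62.5%, against 53.0% of all genes tested), and 0 passed in edgeR. At an unadjusted p under 0.05 there were 1 higher and 2 lower, where 6.30% of all genes were higher and 6.91% lower. The 1 higher was Sesn2, at 51.1, 58.7 and 54.9 CPM in control and 62.3, 63.6 and 65.9 CPM in Piezo1_KO. Its groups did not overlap, and its log2 fold change was 0.22 ± 0.09 (SE, adjusted p = 0.365, edgeR). The 2 lower were Chac1, a glutathione-degrading enzyme induced by ATF4, at 26.5, 35.0 and 29.0 CPM in control and 22.3, 22.5 and 19.7 CPM in Piezo1_KO, and Ddit3 (CHOP), the pro-apoptotic factor of this arm, at 14.6, 15.9 and 17.5 against 12.98, 13.4 and 11.1 CPM. In both the highest Piezo1_KO library was below the lowest control, with log2 fold changes of −0.49 ± 0.13 and −0.36 ± 0.14 (SE) and adjusted p of 0.149 and 0.329 (edgeR). Atf4 itself had a log2 fold change of 0.17 ± 0.11 (SE) with overlapping groups. Translocon and signal recognition genes outside the 33 had a median of 0.12, with 17 of 20 positive (85%, against 53.0% of all genes), and 0 passed in edgeR. Of these 20 genes, 3 were higher and 0 lower at an unadjusted p under 0.05, against 6.30% and 6.91% of all genes. The 30 genes of ER to Golgi traffic had a median of 0.02, against 0.018 for all genes. Of them 19 were positive (63.3%, against 53.0%), and Kdelr3 was the 1 that passed.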

How the data were processed

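RNA from sorted mouse lung ILC2s (3 control and 3 Piezo1_KO libraries) was sequenced on a NextSeq 500, per the labels. The values deposited by the authors are estimated counts for each gene, many of them not whole numbers, without scaling between libraries. Per the submitters' processing notes, reads were placed on mm10. The aligner, counting tool, annotation and strand setting were not given in the sources used here. Libraries were matched to samples by the labels' descriptions and grouped by genotype.

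Counts were rounded, kept by filterByExpr (14149 of 18057 genes), TMM-scaled and tested over all genes in edgeR 4.0.16 under R 4.3.3 with glmQLFit and glmQLFTest, two-sided, without covariates, with Benjamini-Hochberg adjustment and a threshold of 0.05. The standard error is the absolute log2 fold change divided by the square root of F. The script was tested on simulated counts. Depth was 13059046 to 33459904 counts per library. Replicates differed by more than sampling noise, with a chi-square per gene of 9.97 to 55.4 within groups. The alternatives were RLE size factors, no filter, at least 1 CPM in every library of a group, DESeq2 1.42.0, limma-voom (limma 3.58.1) with sample quality weights, the replicate number as a block, and leaving out each library.

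The 33 genes and all lists were chosen with earlier results of these data known. The text names all 33, Piezo1 and the other pathway genes that passed. Fkbp11, Chac1, Ddit3, Sesn2, Atf4, Sec61g and Sec61a2 were named after their values were seen. Positions and principal transcript lengths are from GENCODE M21 on GRCm38, which is mm10, and promoter windows from RefSeq GRCm38.p6, where Ero1l is listed as Ero1a.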

Additional observations from a re-analysis of the deposited data

How the results depend on the processing

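Over the 12 alternatives the 33 genes gave 396 values, of which 359 kept direction and side of the threshold, 6 newly passed, 9 no longer passed and 22 changed sign, in 10 genes. The median log2 fold change of the 33 moved by less than the replicate spread in all 12 (0.093 to 0.13), and the count of positive genes lay between 24 and 27. The count of 1 of the 33 past the threshold was 0 with RLE size factors, 3 with DESeq2, 3 with limma-voom and 0 to 1 when 1 library was left out. It stayed at 1 with the stricter filter and without control 2, but there the gene was Ero1l. The count of 1 among the other pathway genes was 2 with DESeq2 and 0 to 1 when 1 library was left out. The shares of all genes that passed in these alternatives are not given here. The log2 fold change of Piezo1 passed at −0.85 with DESeq2 and −0.93 with limma-voom, and ran from −1.05 to −0.70 when 1 library was left out, passing without control 3. Limma-voom turned the sign of Xbp1 (0.0272), Creld2 (0.0918), Sdf2l1 (0.0330) and Sel1l (−0.0284). Leaving out 1 library turned the sign of these genes: Xbp1 ran from −0.0568 to 0.0116, Hyou1 from −0.0446 to 0.198, Dnajb9 from −0.00711 to 0.119, Creld2 from −0.109 to 0.0934, Sdf2l1 from −0.0993 to 0.00453, Edem1 from −0.0335 to 0.0941, Syvn1 from −0.149 to 0.0725, Sel1l from −0.0542 to 0.0922, Sec61a1 from −0.193 to 0.00682 and Spcs2 from −0.0643 to 0.0687. Of them, Hyou1 (0.110) and Sec61a1 (−0.101) lay furthest from 0 in the main fit. Fits without a library test fewer samples; the cause of the other changes was not tested. With the replicate number as a block, 0 of the 33 and 0 of the other pathway genes passed. The numbers share no label of origin. Correlations of same-numbered deviations were −0.023, −0.183 and −0.008, and those of unlike numbers ran from −0.182 to 0.209. The deviations within a group depend on each other, so these values cannot decide whether the libraries are paired. With 3 libraries a group, the median 95% half-width of 0.229 limits what can be called among differences of this size.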
